A study of Homo sapiens with 9 samples.

Results

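Acetyl groups are placed on histone lysines by acetyltransferases, removed by deacetylases and bound by bromodomain proteins, and the balance of these writers, erasers and readers sets how open chromatin is at promoters and enhancers. In endothelial cells the same enzymes act on transcription factors as well as on histones, and HDAC7 is known for its role in holding the vessel wall together. The messenger RNAs of 38 such genes were examined, out of 18293 genes counted in all libraries. They were taken by symbol: every numbered HDAC, SIRT, KAT and BRD gene, together with EP300, CREBBP, HAT1, NCOA1, NCOA2 and NCOA3. This gave 10 acetyltransferases, 3 nuclear receptor coactivators, 11 genes of the zinc-dependent HDAC family, 7 sirtuins and 7 BRD genes. All 38 passed the filter on low counts and were tested.

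The cells were HMEC-1, a human microvascular endothelial line from skin that was made immortal, kept in MCDB131 medium with 5.5 mM glucose. They received AMI-1 at 100 µM in DMSO, AMI-5 at 100 µM in DMSO, or DMSO alone as the control, each for 16 h, with 3 libraries of poly-A RNA per group and 9 in all. AMI-1 is a urea that joins a pair of hydroxynaphthalene sulfonic acid units and AMI-5 is a brominated xanthene dye. The series presents both as pharmacological inhibitors of methyltransferases, and neither acetylation nor protein was measured. Replicate numbers 1 to 3 are carried by the labels, which do not say whether they stand for separate cultures, so p-values measure only the spread between these libraries. Values are CPM, read counts scaled to library size after the TMM adjustment that edgeR derives from the bulk of genes.

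Libraries held 14451343 to 24691456 counts. Of the summed squares of all genes over the libraries, 77.2% went with replicate number and 11.1% with treatment. In the 9 pairs that share a replicate number, deviations from the group means correlated at 0.431 to 0.871, and all 9 libraries correlated best with one of their own number. The biological coefficient of variation was 23.7% without replicate number in the model and 5.64% with it as a block. Of 14 endothelial markers, 12 were tested, among them CDH5, TIE1, ENG and ERG. PECAM1 and CLDN5 were absent from the deposited counts under these symbols. Their summed level was 913.8 to 1342.8 CPM in the control libraries, 990.8 to 1284.3 under AMI-1 and 755.8 to 1058.9 with AMI-5.

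The 38 genes spanned a wide range of levels in DMSO-treated cells. The following levels are CPM per kilobase of the gene's longest transcript, given as mean ± SD over the 3 control libraries. HDAC1, a class I deacetylase that forms the catalytic core of the SIN3, NuRD and CoREST complexes, stood highest at 75.6 ± 1.05. Its 3 control libraries, 74.8, 75.2 and 76.8, lay above those of the next gene, BRD2, at 52.3, 43.1 and 46.7. BRD2 belongs to the BET proteins, which bind acetylated histones at active promoters. HDAC3, the deacetylase of the NCOR complexes, followed at 33.5 ± 1.53.

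Among the acetyltransferases HAT1, which acetylates newly made histones before they enter chromatin, was the highest at 26.3 ± 8.09, and KAT6B was the lowest at 4.45 ± 0.364. The 3 control libraries of HAT1, 19.5, 35.2 and 24.3, overlapped those of HDAC7 below it in the order, at 27.2, 19.9 and 23.8. The nuclear receptor coactivators ran from 12.4 ± 1.08 for NCOA3 to 2.79 ± 0.225 for NCOA2. Sirtuins, the NAD-dependent deacylases, were led by the nuclear SIRT6 at 9.11 ± 4.07, with SIRT1 at 8.89 ± 1.95 beside it. SIRT4, a mitochondrial sirtuin, was the lowest of them at 0.659 ± 0.116. BRD7 was the lowest of the BRD genes at 9.78 ± 1.11.

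HDAC9 was the lowest of all 38, at 0.133 ± 0.0293. Its raw counts were 13 to 37 per library and those of SIRT4 were 10 to 23, so that changes in these genes could be measured only coarsely. The order depends on the transcript length used. With the median transcript length, CREBBP led at 369 CPM per kilobase, and HDAC1 had 242. On that scale SIRT2 led the sirtuins, ahead of SIRT7 at 36.1, and NCOA2 led the coactivators at 36.9, BRD1 was the lowest BRD gene at 13.4, and SIRT4 at 1.14 lay just under HDAC9 at 1.16. The length of the principal annotated isoform, an alternative chosen after seeing the data, was known for 21 of the 38 genes and not for BRD2, HDAC7, KAT5 or CREBBP among others. Within those 21, HDAC1 was highest at 85.7 and HAT1 followed at 62.3. Of the sirtuins among the 21, SIRT7 led at 15.6, ahead of SIRT6 at 9.11.

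**Figure D1:**
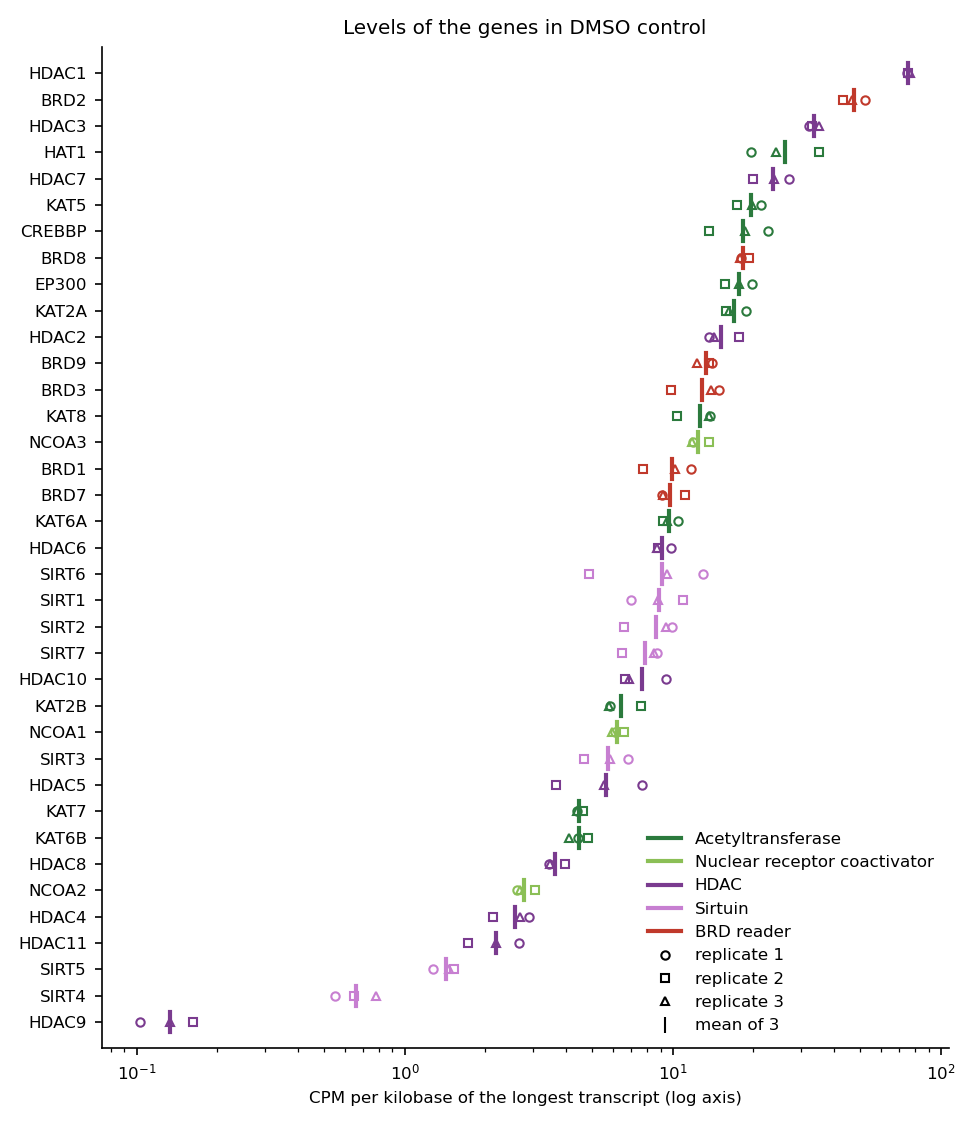
Levels of the genes described in the 3 control libraries, in CPM per kilobase of the longest transcript on a log axis, with 1 symbol per library, a bar for the mean and colours for the class. HDAC1 stands at the top at 75.6 and HDAC9 at the bottom at 0.133, and genes such as HAT1 and SIRT6 show a wide spread between replicates.

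Ratios between paralogues were taken on the scale of CPM per kilobase of the longest transcript, and several of them depend on that choice of length. CREBBP and EP300, the pair of large coactivator acetyltransferases, stood at a ratio of 1.15, 0.882 and 1.05 in control libraries 1 to 3. The same ratio was 1.06, 0.815 and 0.969 under AMI-1 and 1.06, 0.875 and 1.0 with AMI-5, so it lay near equal levels in every library and the groups overlapped. KAT2A exceeded KAT2B, the other catalytic subunit of the SAGA and ATAC coactivator complexes, by 2.70 ± 0.577 times in control, 2.30 ± 0.56 times under AMI-1 and 2.41 ± 0.676 times with AMI-5. With the median transcript length the control ratio was 1.21 ± 0.258. KAT6A exceeded KAT6B by 2.19 ± 0.261 times in control. The ratio of HDAC1 to HDAC2, its partner in the same complexes, was 5.06 ± 0.681 in control, 5.24 ± 0.25 under AMI-1 and 4.76 ± 0.668 with AMI-5. It rests on the longest HDAC2 transcript, of 9874 bases. With the median length the control ratio was 0.935 ± 0.126, so the order of HDAC1 and HDAC2 was not settled.

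Of the class IIa deacetylases, which shuttle between nucleus and cytoplasm and bind MEF2 factors, HDAC7 was the main transcript. Its level per kilobase exceeded that of HDAC4 by 9.18 ± 0.3 times, that of HDAC5 by 4.42 ± 0.934 times and that of HDAC9 by 188.2 ± 70.6 times in control. With the median transcript length these ratios were 8.48, 7.42 and 219.1. With AMI-5 the ratio of HDAC7 to HDAC4 was 8.39, 8.0 and 8.07, below the control libraries at 9.40, 9.31 and 8.84. Under AMI-1 it was 9.58, 10.3 and 7.22, a spread that reached beyond both of those groups. The ratio of HDAC7 to HDAC5 was 3.45, 4.08 and 3.2 with AMI-5, overlapping control at 3.56, 5.41 and 4.3. That of HDAC7 to HDAC9 was 140.3, 129.5 and 156.0 with AMI-5, overlapping control at 263.2, 122.9 and 178.5. How often such ratios separate in other gene pairs was not examined. NCOA3 exceeded NCOA1 by 2.01 ± 0.0685 times in control. Its ratio to NCOA2 was 4.46 ± 0.0897 but turned over to 0.574 ± 0.0116 with the median length, and the SD covers only the spread between libraries. BRD2 exceeded BRD3 by 3.75 ± 0.558 times, and by 1.39 ± 0.206 times with the median length.

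Much of the variation in these 38 genes followed the replicate number and not the compound. Replicate number took 77.4% of their summed squares, treatment 11.1%, and 11.5% was left. For 33 genes the part by replicate number was the larger, and for 5 (BRD9, HDAC1, HDAC3, SIRT4 and SIRT5) the part by treatment was. SIRT6 showed the widest gap. It had 21.3 CPM in control replicate 1 against 7.98 in control replicate 2, 18.9 against 9.90 under AMI-1, and 18.2 against 7.65 with AMI-5. HAT1 went the other way, with 74.8 against 135.5 in control, 75.7 against 129.6 under AMI-1 and 82.3 against 130.8 with AMI-5. In both genes replicate 3 lay between replicates 1 and 2 in all 3 groups.

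The direction of that gap followed the base composition of the transcript. Coding stretches from the middle of the reading frame are printed for the pair of genes lowest in replicate 2 relative to replicate 1 and the pair highest, because they show how far the transcripts differ. Each is 120 bases of the longest coding transcript in GENCODE v29 on GRCh38, written 5′ to 3′, with CG steps in capitals.
SIRT6: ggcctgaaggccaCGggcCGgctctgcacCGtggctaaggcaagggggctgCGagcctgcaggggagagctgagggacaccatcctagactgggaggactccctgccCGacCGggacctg
HDAC5: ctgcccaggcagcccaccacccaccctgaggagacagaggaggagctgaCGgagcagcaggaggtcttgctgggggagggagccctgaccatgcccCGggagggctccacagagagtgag
HAT1: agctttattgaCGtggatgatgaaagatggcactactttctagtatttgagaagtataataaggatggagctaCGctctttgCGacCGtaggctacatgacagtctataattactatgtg
SIRT1: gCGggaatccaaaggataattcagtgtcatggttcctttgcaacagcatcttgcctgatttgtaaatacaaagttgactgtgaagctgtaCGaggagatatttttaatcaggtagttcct
The GC content of these stretches is 70.0% for SIRT6, 68.3% for HDAC5, 39.2% for HAT1 and 40.0% for SIRT1. Over the whole reading frame it is 67.4%, 61.7%, 39.0% and 47.4%. The stretches of HDAC5 and SIRT1 thus lie further apart in GC content than their reading frames do. Over the whole longest transcript GC content is 64.9%, 61.2%, 40.9% and 40.5%. For HAT1 that transcript has 3845 bases and differs from the coding transcript of 1626 bases that gave the stretch.

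Averaged over the 3 groups, log2 CPM in replicate 2 was 1.19 below replicate 1 in SIRT6 (a difference of -1.19) and 0.83 below it in HDAC5 (-0.83). The difference was 0.77 in HAT1 and 0.55 in SIRT1. All 14 genes with a transcript GC content above 55% were lower in replicate 2 than in replicate 1, and 11 of the 12 below 46% were higher. Across the 38 genes Pearson's r between GC content and the difference was -0.852 and Spearman's rho -0.866, as a description over genes that share the same 9 libraries. Across 14654 genes with GC content and an average log2 CPM above 1, r was -0.817. The 38 genes had a median GC content of 52.5%, against 48.1% for all genes tested.

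**Figure D2:**
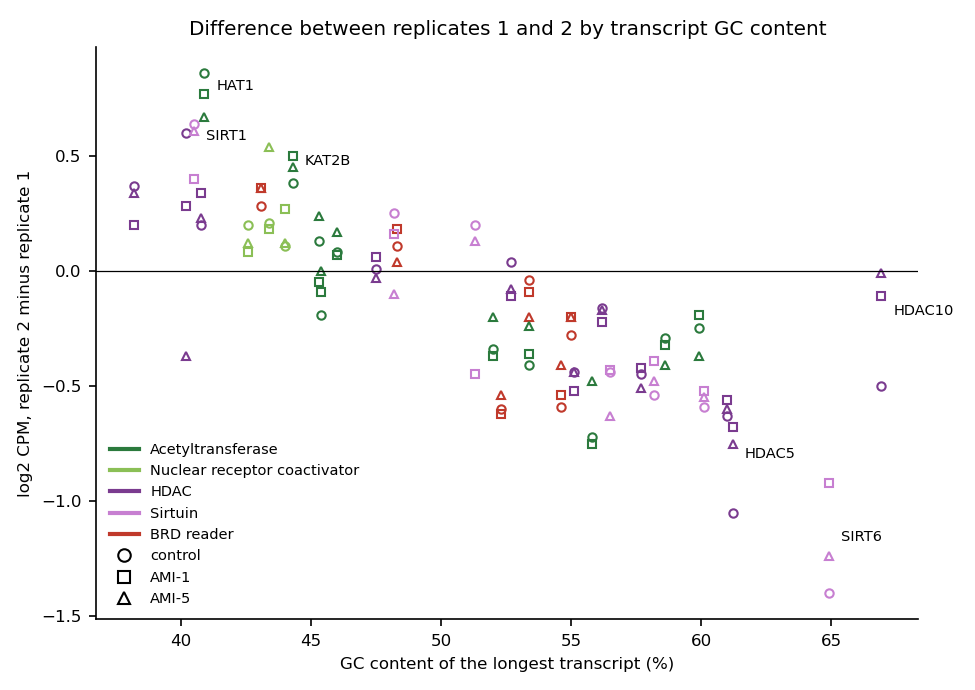
Difference in log2 CPM between replicates 2 and 1 against the GC content of the longest transcript for the genes described, with 1 point per gene and group. GC-rich transcripts such as SIRT6 and HDAC5 lie below 0 in all 3 groups, and GC-poor transcripts such as HAT1 and SIRT1 lie above it.

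The first question is whether either compound changed the level of these messenger RNAs. Without replicate number in the model, edgeR's quasi-likelihood test called 0 of the 38 genes in each of the 3 comparisons, as it called 0 (0%) of all 18284 genes in AMI-1 against control, 0 (0%) in AMI-5 against control and 0 (0%) in AMI-5 against AMI-1. At an unadjusted p under 0.05 there were 0, 2 and 0 of the 38 and 188, 494 and 483 of all genes. DESeq2's Wald test without the block called 0 of the 38 in each comparison, where it called 3, 20 and 36 of all genes. The values that follow are from the fit with replicate number as a block, with Benjamini-Hochberg adjustment over all 18284 genes and ± for the standard error of a log2 fold change.

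With AMI-1, 0 of the 38 were called with the block, where 0.421% of all genes were (0.241% higher and 0.18% lower), and the smallest adjusted p by edgeR was 0.329. With a correction for transcript GC content added, 1 was called, HDAC7, where 3.12% of all genes were. An unadjusted p under 0.05 was reached by 2 of the 38, KAT2A and HDAC7, beside 1850 of all genes. DESeq2 with the block called 0 of the 38 and 75 of all genes. The log2 changes ran from -0.20 to 0.17 around a median of -0.005, with 19 genes above 0 and 19 below, beside a median of -0.002 for all genes. The 95% interval lay within 1.25-fold either way for 32 of the 38 and within 1.5-fold for 36. The exceptions at 1.5-fold were HDAC9 and SIRT4, the pair with the lowest counts, and the interval of all 38 lay within 2-fold.

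KAT2A, the gene with the lowest p under AMI-1, had 58.4, 49.0 and 50.4 CPM in control and 50.6, 44.4 and 42.5 with AMI-1. Each AMI-1 library was below the control of its number, but the groups overlapped, and the log2 change was -0.20 ± 0.07 with an adjusted p of 0.329 by edgeR. HDAC1 was the only one of the 38 whose AMI-1 libraries, at 185.1, 193.5 and 194.9 CPM, were all above those of control, at 180.2, 181.2 and 185.0. Such separation occurred in 4% of all genes in this comparison. Its log2 change was 0.07 ± 0.05, with an adjusted p of 0.681 by edgeR.

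With AMI-5, 3 of the 38 genes fell and 0 rose. Among them were the deacetylase HDAC7 at 0.798 times control and the reader BRD9 at 0.826 times. The share called, 7.89%, stood beside 10.9% of all genes called in this comparison (3.42% higher and 7.45% lower), so the share among the 38 was near the background. The count was 0 when control replicate 1, control replicate 3, AMI-5 replicate 1 or AMI-5 replicate 2 was left out. Of all genes, 295, 258, 172 and 294 were called in those fits. Leaving out AMI-1 replicate 3 gave 7 of the 38, where 4232 of all genes were called. The log2 changes ran from -0.33 to 0.33 around a median of -0.053, beside -0.005 for all genes, with 24 genes below 0 and 14 above. The 95% interval lay within 1.25-fold for 30 genes and within 1.5-fold for 37, the exception being SIRT4. RNA was taken from whole cultures, in which fewer cells of a type and less RNA per cell cannot be told apart.

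HDAC7 (ENSG00000061273.12) had 174.7, 127.7 and 152.8 CPM in control replicates 1 to 3, 164.4, 122.5 and 115.8 under AMI-1, and 139.4, 97.6 and 126.3 with AMI-5. Every AMI-5 library lay below the control of its own number, while the groups overlapped, since AMI-5 replicate 1 was above control replicate 2. It fell with AMI-5 by 0.33 ± 0.07 on the log2 scale, with an adjusted p of 0.00963 by edgeR with the block. Leaving out 1 library at a time kept the call in 5 of 9 fits and lost it without control replicate 1, control replicate 3, AMI-5 replicate 1 or AMI-5 replicate 2, with an adjusted p of up to 0.12. After a correction of each library for transcript GC content the log2 change was -0.21 with an adjusted p of 0.00194. Against control, AMI-1 gave -0.18 ± 0.07 with an adjusted p of 0.383, and 0.0448 after the GC correction.

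BRD9 (ENSG00000028310.13), the bromodomain subunit of the non-canonical BAF remodelling complex, had 67.9, 66.0 and 59.7 CPM in control, 64.3, 60.4 and 55.3 under AMI-1, and 57.8, 50.3 and 51.4 with AMI-5. All AMI-5 libraries were below all control libraries. It fell with AMI-5 by 0.28 ± 0.06 on the log2 scale, with an adjusted p of 0.0112 by edgeR with the block, and by 0.21 after the GC correction, with an adjusted p of 0.00412. The call was kept in 4 of 9 fits that left out 1 library. It was lost without any of the 3 control libraries or without AMI-5 replicate 1 or 2, with an adjusted p of up to 0.121. Treatment took 64.4% of the sum of squares of BRD9, against 29.5% of that of HDAC7.

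**Figure D3:**
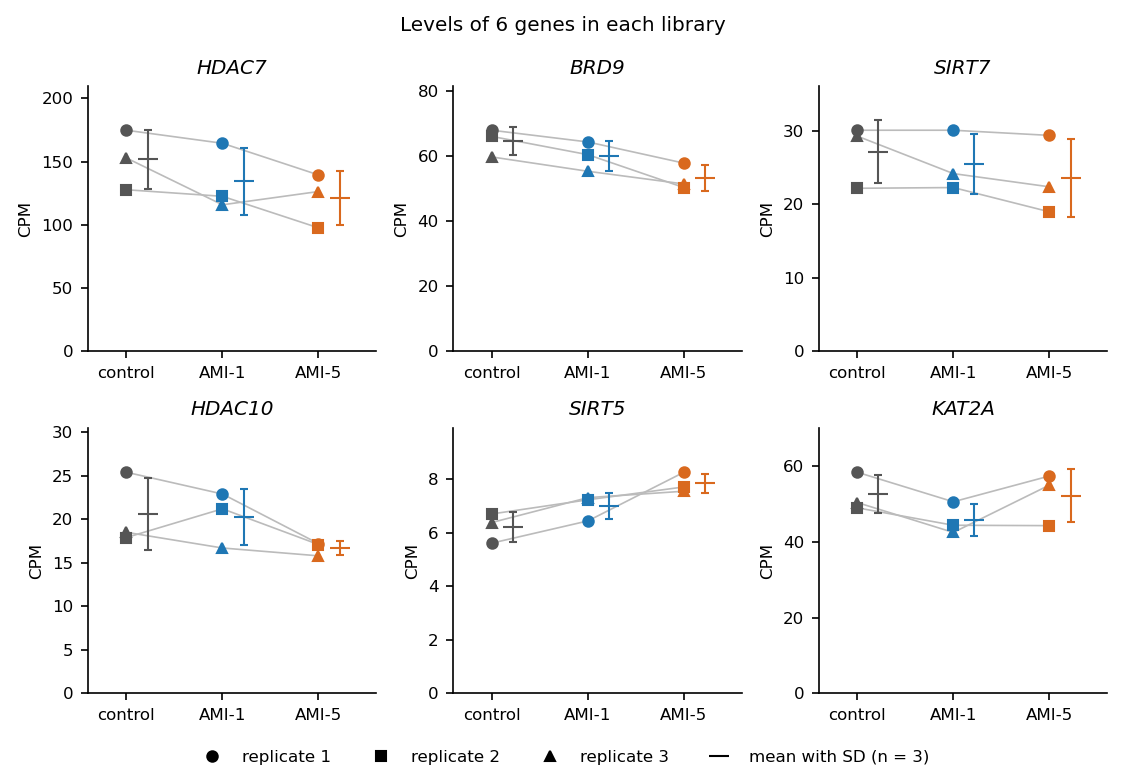
CPM in each library for HDAC7, BRD9, SIRT7, HDAC10, SIRT5 and KAT2A, with lines joining libraries of the same replicate number and bars for mean and SD of 3. AMI-5 lies below control along every line of HDAC7 and BRD9, and of this pair only BRD9 has AMI-5 and control libraries that do not overlap.

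Among acetyltransferases 0 of 10 were called, with log2 changes from -0.15 to 0.17 and a smallest adjusted p by edgeR of 0.121, for KAT2B. EP300 had 189.7, 149.4 and 169.1 CPM in control and 170.9, 148.9 and 171.5 with AMI-5, a log2 change of -0.04 with a 95% interval from -0.16 to 0.07. For CREBBP the change was -0.11, with an interval from -0.23 to 0.02. The 3 nuclear receptor coactivators, which bring acetyltransferases to hormone receptors, had log2 differences of 0.01 to 0.03, with a smallest adjusted p of 0.806 by edgeR.

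Outside HDAC7, 10 HDAC genes were not called. HDAC1 lay between 172.0 and 176.1 CPM with AMI-5, below its 3 control libraries at 180.2 to 185.0, at a log2 change of -0.07 ± 0.05 with an adjusted p of 0.415 by edgeR. The log2 difference was 0.02 ± 0.06 for HDAC2 and -0.04 ± 0.07 for HDAC3. Of the other class IIa genes, HDAC4 was at -0.16 ± 0.08, HDAC5 at -0.04 ± 0.09 and HDAC9 at 0.02 ± 0.25. HDAC10, a polyamine deacetylase, is named after its values were seen: it had 25.4, 17.9 and 18.5 CPM in control and 17.2, 17.1 and 15.8 with AMI-5. All its AMI-5 libraries were below control, at -0.29 ± 0.10 with an adjusted p of 0.0664 by edgeR, but the change was -0.05 after the GC correction. Its transcript has the highest GC content of the 38, at 66.9%.

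Among sirtuins 0 of 7 were called. SIRT5, the mitochondrial desuccinylase, also named after its values were seen, had 5.62, 6.71 and 6.39 CPM in control, 6.45, 7.24 and 7.32 under AMI-1 and 8.27, 7.72 and 7.56 with AMI-5. Its AMI-5 libraries were above all others, at 0.33 ± 0.12 against control with an adjusted p of 0.0751 by edgeR with the block, and 0.0416 after the GC correction. SIRT7, a nucleolar sirtuin, was at -0.22 ± 0.08 with an adjusted p of 0.105 by edgeR. SIRT1 had a log2 change of 0.00 with a 95% interval from -0.15 to 0.15.

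BRD1, itself a subunit of acetyltransferase complexes, was not called with AMI-5. Its log2 change was -0.15 ± 0.06, lower in all 3 pairs, with an unadjusted p of 0.0375 and an adjusted p of 0.154 by edgeR. Others not called included BRD2 at 0.04, BRD3 at -0.14 and BRD7 at 0.06. BRD7 is a subunit of the PBAF remodelling complex. Across the 38 genes, 6 had AMI-5 libraries that did not overlap control: SIRT4 and SIRT5 higher, and BRD9, HDAC1, HDAC6 and HDAC10 lower. Such separation occurred in 7.35% of all genes.

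**Figure D4:**
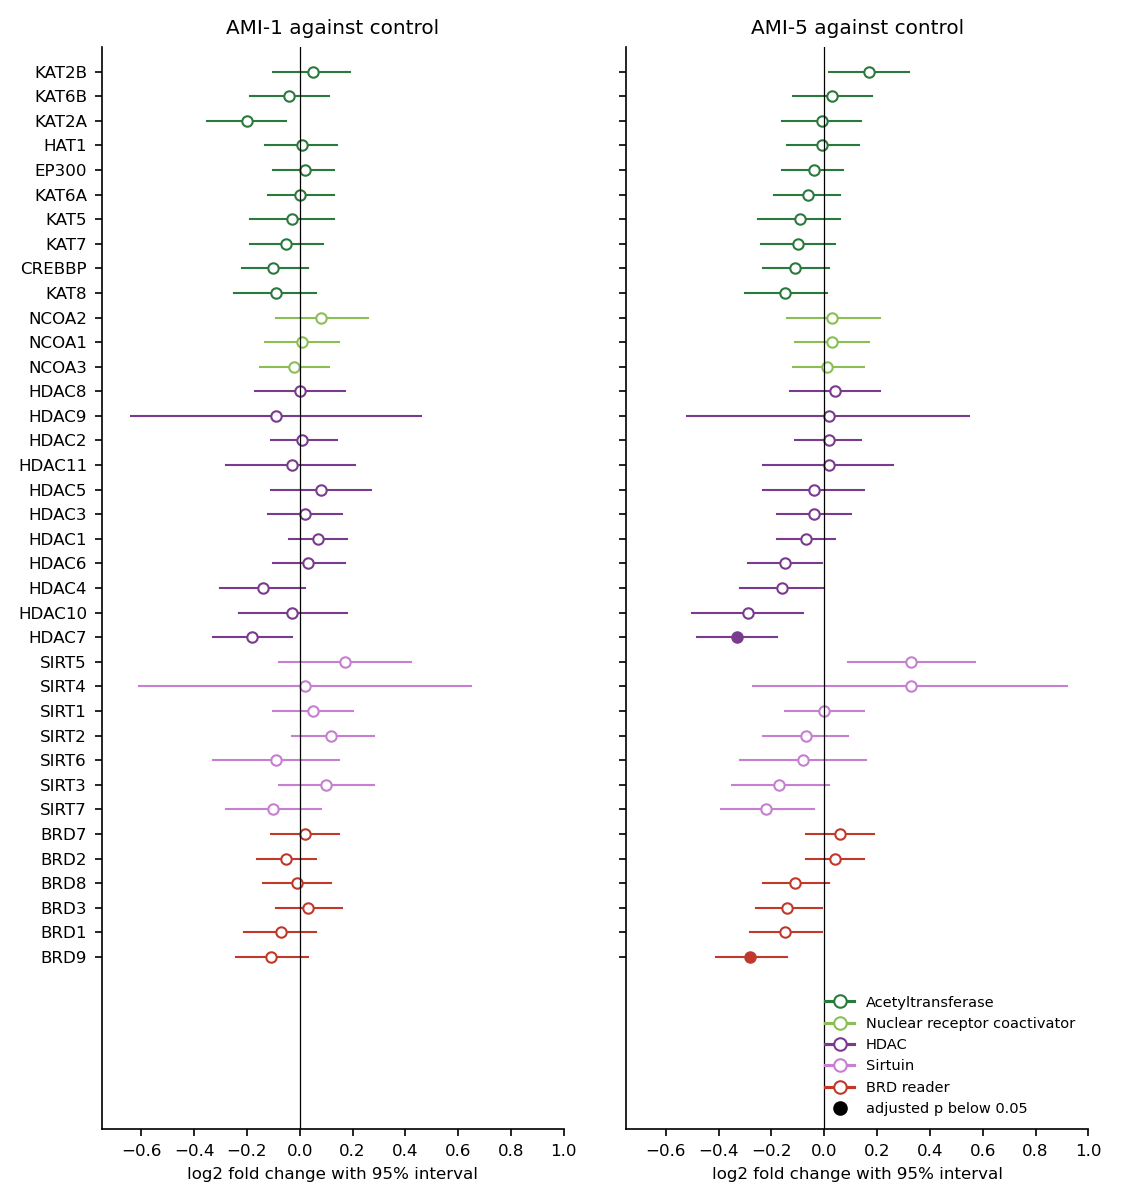
Log2 fold changes with 95% intervals from the fit with the replicate block for the genes described, grouped by class, for AMI-1 and AMI-5 against control. Filled points mark an adjusted p below 0.05, HDAC7 and BRD9 with AMI-5 and no point with AMI-1. The intervals of HDAC9 and SIRT4 are the widest.

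The compounds, which differ in their whole scaffold, were compared at the same dose and time. Neither comparison against control is independent of the other, since they share the control libraries. In AMI-5 against AMI-1, 0 of the 38 were called with the block, where 5.01% of all genes were (1.61% higher and 3.4% lower). There were 8 of the 38 at an unadjusted p under 0.05, beside 3562 of all genes. DESeq2 with the block called 0 of the 38 and 697 of all genes. The smallest adjusted p by edgeR among the 38 was 0.0839, for SIRT3 at -0.27 ± 0.09. The 95% interval of the difference lay within 1.25-fold for 31 genes and within 1.5-fold for 36, again except HDAC9 and SIRT4. The direct difference was -0.14 for HDAC7 (interval -0.30 to 0.01) and -0.17 for BRD9 (-0.30 to -0.04). Neither passed the threshold, so a difference between the compounds was not shown for these genes, nor was it shown that the compounds act alike.

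HDAC1, KAT6A and SIRT5 had AMI-5 libraries that did not overlap those of AMI-1, higher for SIRT5 and lower for the other two, beside 7.49% of all genes in this comparison. Without AMI-1 replicate 3, 7 of the 38 were called between the compounds, where 3408 of all genes were. Among the 7 was HDAC7 at -0.26 with an adjusted p of 0.000769 by edgeR. In AMI-1 replicate 3 HDAC7 had 115.8 CPM, below the 126.3 of AMI-5 replicate 3.

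The GC correction changed which genes were called. With it 1 of the 38 was called for AMI-1 against control, HDAC7, where 3.12% of all genes were. For AMI-5 against control there were 4, where 13.2% of all genes were: HDAC7 and BRD9 lower, and SIRT5 at 0.34 and BRD2 at 0.13 higher. Between the compounds there were 4, where 11.1% of all genes were: KAT2A at 0.30 and BRD2 at 0.15 higher with AMI-5, and HDAC1 at -0.15 and BRD3 at -0.14 lower. KAT2A had 57.4, 44.3 and 55 CPM with AMI-5 against 50.6, 44.4 and 42.5 under AMI-1, and its adjusted p by edgeR was 0.000245 with the correction and 0.136 without it. Across the 38 genes r between GC content and the change with AMI-5 was -0.471 before the correction and 0.223 after it.

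Summed levels were compared as descriptions, with no test. The 11 HDAC genes together had 725.1, 680.0 and 692.3 CPM in control, 727.7, 681.1 and 667.1 under AMI-1, and 672.5, 636.3 and 637.5 with AMI-5, where all 3 were below control. The mean of this HDAC sum was 699.1 CPM in control and 648.8 with AMI-5. HDAC7, called above, gave 151.7 and 121.1 CPM of it. BRD genes had 833.0, 659.1 and 736.7 CPM in control and 752.9, 628.0 and 711.3 with AMI-5. Acetyltransferases had 856.0, 754.8 and 785.5 CPM in control and 782.5, 745.0 and 775.0 with AMI-5. Sirtuins had 150.8, 125.5 and 148.5 CPM in control and 146.5, 122.3 and 137.4 with AMI-5. Nuclear receptor coactivators had 161.9, 183.1 and 159.9 CPM in control and 163.4, 185.1 and 164.1 with AMI-5. Each of those AMI-5 libraries was above the control of its number. In the classes other than the HDAC genes the control and AMI-5 groups overlapped.

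Deacetylases and acetyltransferases work in complexes, and the other subunits were examined as lists that do not contain the 38. The list of deacetylase corepressor subunits held 38 measured genes. With AMI-5 against control, 10 of them fell and 1 rose by edgeR with the block, 28.9% of the list beside 10.9% of all genes, and the list's median was -0.052. With AMI-1 against control 0 were called, where 0.421% of all genes were. At an unadjusted p under 0.05 there were 5, beside 1850 of all 18284 genes. Between the compounds 5 were lower with AMI-5 and 0 higher, 13.2% of the list beside 5.01% of all genes. In the fits that left out 1 library the count for AMI-5 ranged from 2 to 17. It was 2 without control replicate 1, control replicate 3, AMI-5 replicate 1 or AMI-5 replicate 2, when 0.941% to 1.61% of all genes were called. It was 16 and 17 without AMI-1 replicates 2 and 3, when 2936 and 4232 of all genes were called. With the GC correction 11 fell and 0 rose, 28.9% of the list beside 13.2% of all genes.

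NCOR1, the scaffold that activates HDAC3, had 267.7, 247.4 and 254.9 CPM in control, 250.0, 235.6 and 250.2 under AMI-1, and 210.6, 196.8 and 200.0 with AMI-5. All AMI-5 libraries were below all others. It fell by 0.34 ± 0.05 on the log2 scale, with an adjusted p of 0.000853 by edgeR, stayed called in all 9 fits that left out 1 library, and changed by -0.37 with the GC correction. Between the compounds the difference was -0.28 ± 0.05, with an adjusted p of 0.00337. HDAC3 itself had 62.9, 64.9 and 68.8 CPM in control and 67.6, 63.9 and 60.2 with AMI-5, and was not called.

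SIN3B, a scaffold for HDAC1 and HDAC2, had 82.8, 49.2 and 69.1 CPM in control, 81.5, 53.7 and 62.4 under AMI-1 and 62.0, 36.4 and 50.9 with AMI-5. Each AMI-5 library was below the others of its number, though the groups overlapped. It fell by 0.43 ± 0.07 with an adjusted p of 0.00122 by edgeR, kept the call in all 9 fits that left out 1 library, and changed by -0.28 with the GC correction. Its paralogue SIN3A, named here for that reason, had 113.5, 119.9 and 115.0 CPM in control and 112.0, 122.2 and 111.5 with AMI-5, a change of -0.01 ± 0.05. CHD3, a remodelling ATPase of NuRD, had 412.7, 288.0 and 360.6 CPM in control and 334.0, 255.1 and 310.0 with AMI-5. It fell by 0.23 ± 0.05, with an adjusted p of 0.0112 by edgeR, and kept the call in 5 of 9 fits that left out 1 library (lost without control replicates 1 or 3 or AMI-5 replicates 1 or 2).

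**Figure D5:**
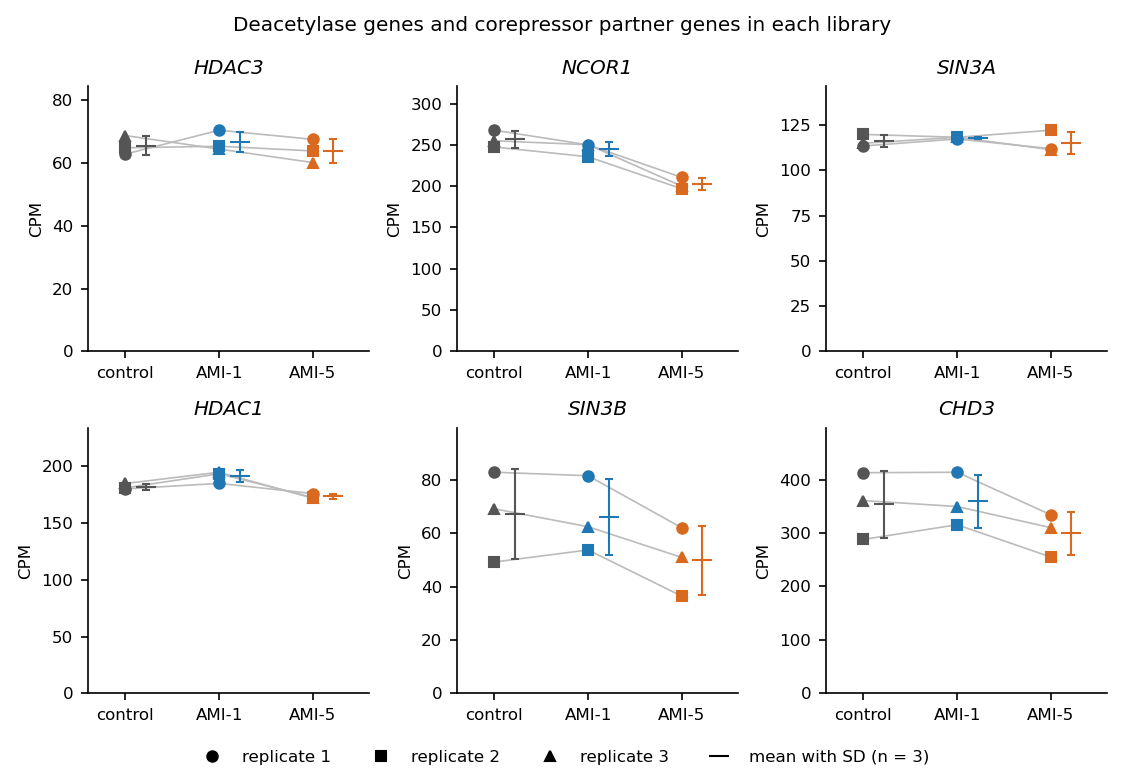
CPM in each library for HDAC3 and HDAC1 and for the corepressor genes NCOR1, SIN3A, SIN3B and CHD3, with lines joining libraries of the same replicate number and bars for mean and SD of 3. NCOR1 at 196.8 to 210.6 CPM with AMI-5 lies below all control libraries, while HDAC3 at 60.2 to 67.6 overlaps control.

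The subunits of acetyltransferase complexes gave a smaller count. Of 46 measured, 1 fell and 0 rose with AMI-5, 2.17% of the list beside 10.9% of all genes. That gene was PHF15, also called JADE2, a scaffold of the KAT7 complex. It had 145.0, 90.2 and 121.5 CPM in control and 112.3, 75.3 and 103.0 with AMI-5, a fall of 0.29 ± 0.06 on the log2 scale with an adjusted p of 0.00569 by edgeR. The call was kept in 5 of 9 fits that left out 1 library, lost without control replicates 1 or 3 or AMI-5 replicates 1 or 2. With AMI-1, 0 of the 46 were called, where 0.421% of all genes were. At an unadjusted p under 0.05 there were 5, beside 1850 of all 18284 genes. Between the compounds 0 of the 46 were called, where 5.01% of all genes were. At an unadjusted p under 0.05 there were 3, beside 3562 of all genes.

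Readers outside the BRD genes were a list of 33 measured genes, drawn from bromodomain proteins, YEATS proteins and the DPF family. With AMI-5 against control 5 fell and 1 rose, 18.2% of the list beside 10.9% of all genes. With AMI-1 0 were called, where 0.421% of all genes were. At an unadjusted p under 0.05 there were 5, beside 1850 of all 18284 genes. The calls for AMI-5 numbered 0 without control replicate 1, control replicate 3 or AMI-5 replicate 2, 1 without AMI-5 replicate 1, and 12 (6 in each direction) without AMI-1 replicate 3. All genes called in these fits numbered 295, 258, 294, 172 and 4232, in the same order. ZMYND8, a bromodomain protein that binds NuRD, had 154.6, 165.8 and 165.9 CPM in control, 164.5, 168.2 and 173.2 under AMI-1 and 135.5, 138.3 and 133.2 with AMI-5. All AMI-5 libraries were below all others, and it fell by 0.26 ± 0.05 against control with an adjusted p of 0.00732 by edgeR. It kept the call in 6 of 9 fits that left out 1 library, lost without control replicates 1 or 3 or AMI-5 replicate 2, and in all 9 for the difference from AMI-1, which was -0.31 ± 0.05 with an adjusted p of 0.00202. SMARCA4, the BAF ATPase, fell by 0.23 ± 0.06 and TRIM28, a corepressor, by 0.25 ± 0.06, with adjusted p of 0.0156 and 0.0177 by edgeR. Their changes were -0.06 and -0.04 with the GC correction and were then not called, and each call was kept in 5 of 9 fits that left out 1 library, lost without control replicates 1 or 3 or AMI-5 replicates 1 or 2. Between the compounds ZMYND8 and MLLT1, a YEATS protein of the super elongation complex, were lower with AMI-5, 6.06% of the list beside 5.01% of all genes. MLLT1 differed by -0.25 ± 0.07 with an adjusted p of 0.0424 by edgeR, kept the call in 3 of 9 fits that left out 1 library, and differed by -0.11 with the GC correction, then uncalled. The 6 fits that lost it left out replicate 1 or 2 of AMI-1 or AMI-5 or replicate 1 or 3 of control.

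Enzymes that supply acetyl-CoA and NAD, the substrates of writers and sirtuins, were 18 measured genes, of which 2 rose and 0 fell with AMI-5. That is 11.1% of the list beside 10.9% of all genes, a share near the background. Both were pyruvate dehydrogenase kinases, which restrain the entry of pyruvate into acetyl-CoA. PDK4 had 0.736, 0.605 and 0.518 CPM in control, 0.561, 0.679 and 1.25 under AMI-1 and 1.13, 2.01 and 2.03 with AMI-5. Its AMI-5 libraries were above all control libraries, though the level was low throughout. PDK4 rose by 1.51 ± 0.30 on the log2 scale with an adjusted p of 0.0055 by edgeR, a call lost without control replicate 3 or AMI-5 replicate 2. Between the compounds it was higher with AMI-5 by 0.98 ± 0.27 with an adjusted p of 0.0456, kept in 4 of 9 fits that left out 1 library and lost without AMI-1 replicates 1 or 2 or any AMI-5 library. PDK1 had 13.6, 18.4 and 14.8 CPM in control and 16.3, 22.4 and 21.7 with AMI-5. PDK1 rose by 0.38 ± 0.09 with an adjusted p of 0.015 by edgeR, lost without control replicate 3 or AMI-5 replicates 1 or 3. With the GC correction 2 of the 18 rose and 2 fell, 22.2% of the list beside 13.2% of all genes. With AMI-1, 0 of the 18 were called, where 0.421% of all genes were. At an unadjusted p under 0.05 there were 3, beside 1850 of all 18284 genes.

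Cell type markers moved with the same comparison. With AMI-5 against control 6 of the 12 endothelial markers fell and 1 rose by edgeR with the block, 58.3% of the list beside 10.9% of all genes. Those lower numbered 0 without control replicate 1, AMI-5 replicate 1 or AMI-5 replicate 2, and 1 when control replicate 3 was left out. They numbered 3 when AMI-1 replicate 1 was left out and 4 with the GC correction. All genes called in either direction numbered 295, 172, 294, 258, 1335 and 2418 in these fits, in the same order. With AMI-1, 0 of the 12 were called, where 0.421% of all genes were. At an unadjusted p under 0.05 there were 0, beside 1850 of all 18284 genes. Of 5 smooth muscle and pericyte markers 1 fell with AMI-5, 20% beside the same 10.9%, and their summed level was 201.4 to 435.1 CPM in control and 169.3 to 324.6 with AMI-5. Of 4 fibroblast markers 1 fell, COL1A1, 25% beside the same 10.9%, and their sum was 2943.1 to 4377.8 CPM in control and 2401.8 to 3100.3 with AMI-5. The only leukocyte marker tested, CD14, had 1.57 to 2.54 CPM in control, and 0 of 4 epithelial markers passed the filter. The part of these marker changes in the results for the 38 genes was not tested.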

How the data were processed

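Poly-A RNA of 9 HMEC-1 libraries, 3 per group, was counted per gene by the authors, who deposited raw counts in 2 tables, 1 per compound, with the control libraries in both. The submitters' processing notes name BWA, bedtools and hg19. Tool versions, the annotation and strand handling are not given in the sources used, so reads of overlapping or antisense genes cannot be told apart. Control counts were identical in the tables. Each table held only genes with a mean count of at least 10 per library, and the 18293 genes in both were used. The 38 genes and the gene lists were chosen with earlier results of these data known.

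Counts were scaled by TMM and filtered with filterByExpr using the groups, so that 9 genes dropped out and 18284 were tested. All 9 libraries entered 1 quasi-likelihood model (edgeR 4.0.16, R 4.3.3) with 3 contrasts, first without and then with replicate number as a block. The labels share the numbers without saying what they mark. The column headers of the counts also give libraries of the same number a shared prefix, which begins with FC and differs between the numbers. Its meaning is not given, and it cannot be told apart from replicate number. The pairing was used because all 9 same-numbered pairs correlated above 0.1 in their deviations from group means. Adjusted p-values are Benjamini-Hochberg over all genes tested, with a threshold of 0.05, and the standard error of a log2 fold change was derived from its F statistic. The GC correction was a lowess curve (span 0.3) of each library's deviations on the GC content of the longest GENCODE v29 transcript, used as an offset with the block. GC content was known for 95.7% of the genes. Log2 CPM used a prior count of 2. The scripts were tested on simulated data.

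A gene of the 38 was described with every library and full statistics if called with the block in any comparison, and the highest and lowest of each class by level and the paralogue groups were named. At most 3 called genes per list and comparison, those with the lowest adjusted p, were named. Others are pointed out where they appear. Counts cover all 38 genes and all list genes, but some single results are not reported here. The reference annotation is on GRCh38 and was used only for lengths, GC content and coding sequence, so no coordinates are given. Alternatives were DESeq2 1.42.0 size factors and Wald test, no filter on low counts, only the groups compared, and each library left out in turn.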

Additional observations from a re-analysis of the deposited data

How the results depend on the processing

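In the fit without the block the count of the 38 genes called was 0 in each comparison under every alternative run that had no block. All genes called in those fits numbered 0 to 36. Adding the replicate block gave 3 for AMI-5 against control, and 0 for AMI-1 against control and for AMI-5 against AMI-1. From that blocked fit of AMI-5 against control, removing the block returned 0, as it did for all genes. Fitting only the groups compared gave 7, where 4286 of all genes were called. Leaving out 1 library at a time gave 0 to 7. It was 0 without control replicate 1, control replicate 3, AMI-5 replicate 1 or AMI-5 replicate 2, where 172 to 295 of all genes were called. It was 7 without AMI-1 replicate 3, where 4232 were. The GC correction with the block gave 1 for AMI-1 against control and 4 between the compounds, where 570 and 2034 of all genes were called. Between the compounds, leaving out 1 library gave 0 to 7, with 7 without AMI-1 replicate 3, where 3408 of all genes were called. The cause of these shifts was not tested. The changes of the 3 genes called with AMI-5, over the 3 comparisons, reversed under none of the alternatives: 110 kept their side of the threshold, 21 lost the call and 4 gained it. All 21 losses were in AMI-5 against control, the only comparison where these genes were called in the main fit with the block. Most of the 110 came from comparisons without a call, so that number does not show the calls to be stable. The level per kilobase was higher with the median transcript length, up to 369 for CREBBP. With that length the control ratio of HDAC1 to HDAC2 reversed from 5.06 to 0.935 and that of NCOA3 to NCOA2 from 4.46 to 0.574, because the longest and the median transcript differ by unequal factors between paralogues. Raw counts of 10 to 23 for SIRT4 and 13 to 37 for HDAC9 limit what could be detected in these genes.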
